A study of Mus musculus with 6 samples.

Results

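The sirtuins are a family of 7 genes, Sirt1 to Sirt7, chosen by gene name from the 54532 genes of the count table. All 7 were kept by the filter on low counts and are therefore among the 14774 genes tested. Counts came from RNA-seq of left ventricles of 6 mice with pressure overload by aortic banding (AB), a ligature that narrows the aorta. In TG mice (3 libraries, genotype label HINT2CTG-Myh6Cre) a CAG-HINT2 transgene was switched on in cardiomyocytes by a tamoxifen-inducible Cre driven by the Myh6 promoter, and NTG mice (3 libraries) were labelled C57BL/6J. HINT2 is a mitochondrial nucleotide hydrolase. All mice were males banded at 8 to 10 weeks of age, hearts were taken 4 weeks later, and no unbanded hearts were analysed here. The sources used here do not say whether the NTG mice received tamoxifen or carried Cre, so HINT2, Cre and tamoxifen cannot be told apart in the comparison.

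Sirtuins remove acyl groups from lysines of proteins and split 1 molecule of NAD for each group removed, which ties their activity to the supply of this cofactor. SIRT3, SIRT4 and SIRT5 are imported into mitochondria, where SIRT3 is the main deacetylase, SIRT5 removes succinyl, malonyl and glutaryl groups, and SIRT4 acts on lipoyl and other acyl groups. SIRT1, SIRT6 and SIRT7 are mostly nuclear, with SIRT7 in the nucleolus, and SIRT2 is mostly cytosolic. In heart muscle the mitochondrial members are best known for their action on enzymes of fuel oxidation, the respiratory chain and antioxidant defence.

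Across the family, Sirt3 was 1.53-fold higher and Sirt5 1.27-fold higher in TG than in NTG hearts, and in both genes all 3 TG libraries lay above all 3 NTG libraries, as they did in 11.2% of all genes tested (23.5% did not overlap in either direction). The third mitochondrial member, Sirt4, and the 4 nuclear and cytosolic members had overlapping groups. A gene was called where its log2 fold change exceeded 0.5 in either direction with an adjusted p under 0.05. None of the 7 was called when all 6 libraries were fitted with edgeR's quasi-likelihood test, which called 0 of 14774 genes (0% of those tested). At an unadjusted p under 0.05 it found 2 of the 7 sirtuins, against 18.6% of all genes tested. Sirt3 was called by DESeq2, as were 3.95% of all genes, and in the edgeR fit without NTG 1, as were 5.52%. The DESeq2 call was lost when NTG 2, NTG 3, TG 1 or TG 3 was left out.

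The libraries held between 14863568 and 17581220 counts. Hint2 was counted 793, 828 and 859 times in the TG libraries and 12, 545 and 559 times in the NTG libraries, so the library labelled NTG 1 stands apart from its group. The log2 fold change of Hint2 was 1.33 with that library (SE 0.86, edgeR's adjusted p = 0.433) and 0.77 without it (SE 0.12, edgeR's adjusted p = 0.0212). Over all genes, the counts of NTG 1 were nearer to those of TG 1, 2 and 3 (chi-square per gene 20.2, 16.5 and 25.9) than to those of NTG 2 and NTG 3 (65.1 and 30.7). NTG 1 was not the only library to cross groups. TG 2 was nearer to NTG 1 and NTG 3 (16.5 and 26.25) than to TG 1 and TG 3 (29.8 and 33.7), but far from NTG 2 (65.5). The 8 ventricular cardiomyocyte markers summed to 26770 to 32880 CPM (counts scaled to equal library size) in TG and 17010 to 27370 CPM in NTG, with all 8 fitted higher in TG, whereas all 6 fibroblast markers (1563 to 2632 against 3098 to 6775 CPM) and all 6 macrophage markers (281.8 to 375.8 against 346.9 to 690.4 CPM) were fitted lower. Erythroid markers (3, all fitted lower) summed to 651.6 to 761.3 CPM in TG and 1153 to 1934 CPM in NTG, and smooth muscle markers (3 of 4 fitted higher) to 202 to 224.8 and 129.9 to 155 CPM, with no overlap of the groups in either. Atrial markers (Myl7, Myl4 and Sln) summed to 67.5 CPM in NTG 1, 29.2 in TG 2 and 167 in TG 3, and to 2.18 to 4.54 in the other libraries. No marker of any list was at 0 in all libraries. Genes of the mitochondrial genome took 13.44 to 19.17% of counts in NTG and 15.95 to 21.45% in TG. In bulk tissue, fewer cells of a type and less RNA per cell cannot be told apart.

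Sirt3 and Sirt5 are the members whose groups did not overlap, and their promoter windows (RefSeq, GRCm38.p6, 250 bases before to 50 after the annotated start) are shown to place those results at their genes. Sirt3 has 2 annotated starts, both on the minus strand, at chr7:140882260-140882559 and chr7:140881820-140882119, and Sirt5 has 1 on the plus strand at chr13:43365285-43365584. Capitals mark the motifs searched on both strands: CCGGAAG, the core bound by ETS factors, which reads CTTCCGG on the other strand, and AAGGTCA, the half-site of oestrogen-related receptors.
Sirt3, first start: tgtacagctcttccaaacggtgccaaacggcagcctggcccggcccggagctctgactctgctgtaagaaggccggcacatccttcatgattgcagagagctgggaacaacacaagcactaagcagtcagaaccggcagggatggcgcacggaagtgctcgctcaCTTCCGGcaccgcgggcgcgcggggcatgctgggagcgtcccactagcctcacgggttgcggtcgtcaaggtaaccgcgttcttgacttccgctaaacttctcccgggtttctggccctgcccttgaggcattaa
Sirt3, second start: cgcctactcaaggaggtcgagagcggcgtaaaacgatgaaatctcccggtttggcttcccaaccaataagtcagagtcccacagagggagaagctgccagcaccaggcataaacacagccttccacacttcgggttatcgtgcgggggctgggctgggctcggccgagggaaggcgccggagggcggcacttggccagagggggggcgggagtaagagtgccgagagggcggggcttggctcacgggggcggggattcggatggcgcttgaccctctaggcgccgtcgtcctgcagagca
Sirt5: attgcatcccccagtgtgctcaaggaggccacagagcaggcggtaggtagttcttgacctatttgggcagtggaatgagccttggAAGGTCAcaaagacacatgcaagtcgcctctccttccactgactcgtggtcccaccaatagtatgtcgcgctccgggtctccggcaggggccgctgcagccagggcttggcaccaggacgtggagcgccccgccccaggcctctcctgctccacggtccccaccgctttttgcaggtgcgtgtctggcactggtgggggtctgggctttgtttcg

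The first Sirt3 window held 1 ETS core, 85 bases before the start, and the second held none of the motifs. The Sirt5 window held 1 oestrogen-related receptor half-site, 165 bases before the start. Among all 32851 promoter windows of this length, 8.86% held CCGGAAG and 4.72% held AAGGTCA. Of the other members, Sirt1 had the E-box CACGTG at 115 and at 43 bases before its start (7.15% of windows held it). Sirt6 had CCGGAAG and 2 overlapping matches of GCGCATGC, the core of NRF1 sites (2.71% of windows), in 1 of its 2 windows. Sirt7 had 2 matches of CCGGAAG and 1 of GCGCATGC, and the windows of Sirt2 and Sirt4 had none of the 4 motifs. GC content was 79% in the Sirt1 window and 50 to 64.7% in the other 8, with a median of 52.7% over all windows. The motifs were chosen after the sequences had been seen, and a match is a description of letters, not a bound site.

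Sirt3, the main deacetylase of the mitochondrial matrix, stood at 20.4, 15.2 and 17.3 CPM in NTG 1, 2 and 3 and at 29.9, 23.1 and 27.8 CPM in TG 1, 2 and 3. The lowest TG library was above the highest NTG library. Means were 17.7 ± 2.60 CPM in NTG and 26.9 ± 3.48 CPM in TG (SD, n = 3 each), and the fitted log2 fold change was 0.61 (SE 0.15, 95% interval 0.27 to 0.95). The adjusted p was 0.196 by edgeR (quasi-likelihood, Benjamini-Hochberg over all genes), equal to the smallest adjusted p of any gene tested, and Sirt3 ranked 223 among the 14774 genes by unadjusted p. The exact two-sided permutation test gave p = 0.1, the smallest that 3 against 3 libraries allow.

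When NTG 1 was left out, Sirt3 had a log2 fold change of 0.72 (SE 0.15) and edgeR's adjusted p was 0.0366, so that Sirt3 was the 1 sirtuin called, against 5.52% of all genes tested in that fit. DESeq2 on all 6 libraries likewise called Sirt3 alone of the family (log2 fold change 0.62, adjusted p = 0.0302), while it called 3.95% of all genes. The DESeq2 call was lost when NTG 2, NTG 3, TG 1 or TG 3 was left out, with an adjusted p of 0.219 to 0.305.

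Relative to the ventricular cardiomyocyte markers, a ratio added after the values had been seen, Sirt3 stood at 0.746, 0.896 and 0.745 CPM per 1000 CPM of markers in NTG 1, 2 and 3 and at 0.908, 0.862 and 0.874 in TG 1, 2 and 3. The groups overlapped on this scale, since NTG 2 lay above TG 2 and TG 3. The log2 ratio of the means was 0.15, against 0.61 on the CPM scale, and the exact two-sided permutation p was 0.3. The marker sum follows the expression of the marker genes as well as the share of cardiomyocytes. Its largest member, Myh6, was fitted at 0.56. The paper reports higher expression of its product, alpha myosin heavy chain, in TG than in NTG mice after AB. The part of the cardiomyocyte share in the Sirt3 difference was not tested.

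Sirt3 (ENSMUSG00000025486) lies on the minus strand of chromosome 7 (140863666 to 140882309, GRCm38), and 12.7% of its 5973 exonic bases are also exonic in genes of the opposite strand. These are Ric8a at its 3′ end (418 bases) and Psmd13, a proteasome subunit gene whose start is 341 bases from that of Sirt3 (342 bases). The sources used here do not say whether counting used strand; without strand, reads there cannot be told from reads of Sirt3. Ric8a stood at 32.0 ± 4.86 CPM in NTG and 27.4 ± 1.34 CPM in TG (log2 fold change −0.23, edgeR's adjusted p = 0.368), and Psmd13 at 65.9 ± 4.22 and 71.1 ± 2.55 CPM (log2 fold change 0.11, edgeR's adjusted p = 0.517). Both neighbours had overlapping groups.

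Sirt5, the desuccinylase (ENSMUSG00000054021, chromosome 13, 43365496 to 43395203, plus strand), was measured at 20.96, 17.8 and 23.7 CPM in NTG 1, 2 and 3 and at 30.0, 24.8 and 24.7 CPM in TG 1, 2 and 3. The groups did not overlap, but NTG 3 and TG 3 were only about 1 CPM apart. Means were 20.8 ± 2.91 and 26.5 ± 3.04 CPM (SD, n = 3 each), with a log2 fold change of 0.35 (SE 0.14, 95% interval 0.02 to 0.67) and an adjusted p of 0.244 by edgeR. The exact two-sided permutation p was 0.1. Together with Sirt3 this made 2 of 7 sirtuins higher in TG at an unadjusted p under 0.05, against 8.83% of all genes in that direction. Without NTG 1 the fold change of Sirt5 was similar, at 0.35 (SE 0.16), and edgeR's adjusted p was 0.203. Relative to the summed cardiomyocyte markers Sirt5 turned to −0.12, with overlapping groups. The single markers ranged from 0.10 (Actn2) to 0.61 (Tnni3), and the 0.35 of Sirt5 lay within their range.

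Sirt4 (ENSMUSG00000029524, chromosome 5, 115478010 to 115484725, minus strand) gave 9.63, 5.74 and 9.14 CPM in NTG 1, 2 and 3 and 8.37, 9.44 and 10.9 CPM in TG 1, 2 and 3. TG 1 lay below 2 of the NTG libraries, and NTG 2 was the low library of its group. Its SD was 26.0% of the mean in NTG, the widest of the family in that group. The log2 fold change was 0.23 (SE 0.22, 95% interval −0.28 to 0.74), with an adjusted p of 0.590 by edgeR, so that a difference of the size seen for Sirt3 lies within the interval. It was 0.36 without NTG 1 and 0.03 without NTG 2, and relative to the cardiomyocyte markers it turned to −0.19, with overlapping groups.

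**Figure D1:**
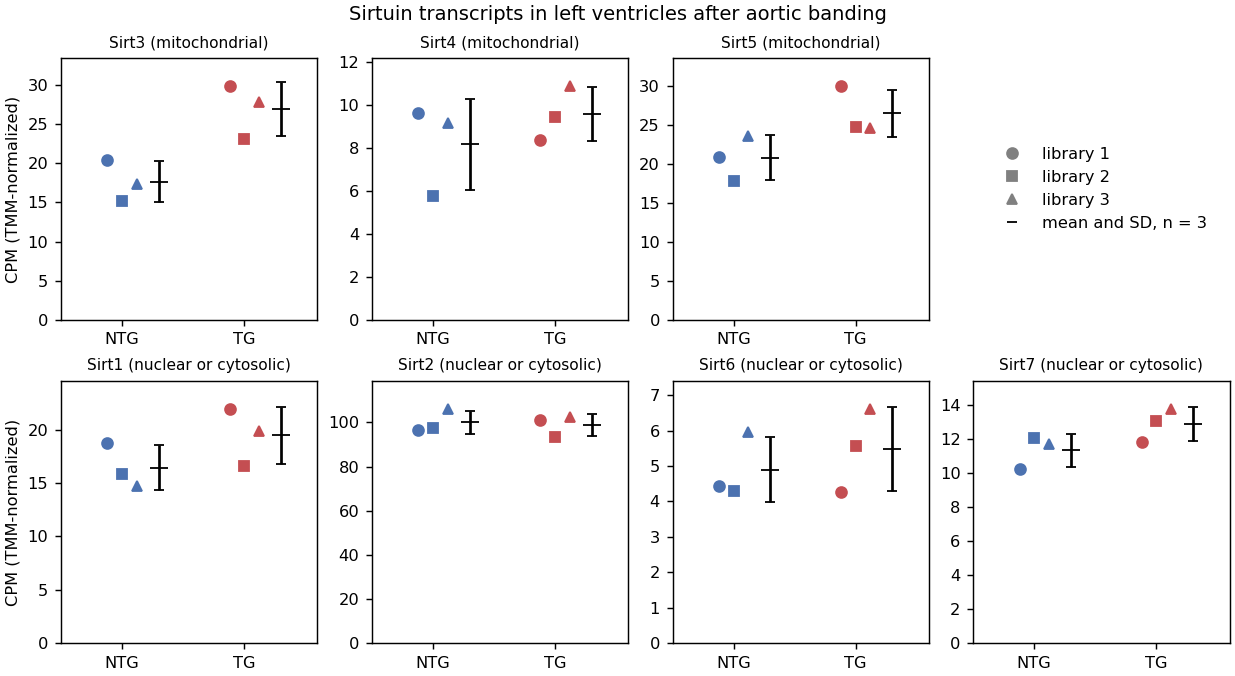
Each panel plots 1 sirtuin in TMM-normalized CPM on an axis from 0, with 3 NTG and 3 TG libraries as points (circle, square and triangle for libraries 1, 2 and 3) and the group mean with SD beside them. Only the panels of Sirt3 and Sirt5 show all TG points above all NTG points.

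Among the nuclear and cytosolic members, Sirt1, the deacetylase of many transcription factors (ENSMUSG00000020063, chromosome 10, 63319005 to 63381704, minus strand), was counted at 18.8, 15.8 and 14.8 CPM in NTG 1, 2 and 3 and at 21.9, 16.6 and 19.9 CPM in TG 1, 2 and 3. NTG 1 lay above TG 2, so the groups overlapped. The log2 fold change was 0.24 (SE 0.15, 95% interval −0.10 to 0.58), with an adjusted p of 0.396 by edgeR. Without NTG 1 it was 0.34 (SE 0.15, edgeR's adjusted p = 0.197), without TG 1 it was 0.15, and relative to the cardiomyocyte markers it was −0.24.

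Sirt2, a deacetylase of tubulin and other cytosolic proteins (ENSMUSG00000015149, chromosome 7, 28766735 to 28788661, plus strand), was at 96.6, 97.3 and 106 CPM in NTG 1, 2 and 3 and at 101, 93.2 and 103 CPM in TG 1, 2 and 3. The 6 libraries lay in 1 range, and SDs of 5.22% of the mean in NTG and 5.09% in TG were the smallest of the family. The log2 fold change of −0.02 (SE 0.09) had a 95% interval of −0.22 to 0.19. Relative to the cardiomyocyte markers, Sirt2 was the 1 member whose groups did not overlap, at 3.07 to 3.48 CPM per 1000 CPM of markers in TG against 3.53 to 5.72 in NTG (log2 ratio −0.50, exact two-sided permutation p = 0.1). With Sirt2 itself nearly flat in CPM, this ratio mainly follows the marker sums (17010 to 27370 CPM in NTG, 26770 to 32880 CPM in TG). It therefore says little about Sirt2, and the share of all genes that separate on this scale was not computed.

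Sirt6, which acts on histone H3 at telomeres and glycolytic genes (ENSMUSG00000034748, chromosome 10, 81621785 to 81627797, minus strand), had the lowest level per length (given below in FPKM), at 4.44, 4.30 and 5.96 CPM in NTG 1, 2 and 3 and 4.26, 5.57 and 6.61 CPM in TG 1, 2 and 3. Its lowest value was in TG 1 and its highest in TG 3, and the groups overlapped. The log2 fold change was 0.16 (SE 0.24, 95% interval −0.38 to 0.71, edgeR's adjusted p = 0.729), on counts of only 59 to 107 per library. It was 0.10 without NTG 1, 0.01 without TG 3 and 0.33 without NTG 3, and relative to the cardiomyocyte markers it turned to −0.30, with overlapping groups.

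Sirt7, the nucleolar member linked to transcription of ribosomal genes (ENSMUSG00000025138, chromosome 11, 120618372 to 120625240, minus strand), was at 10.2, 12.1 and 11.7 CPM in NTG 1, 2 and 3 and at 11.8, 13.1 and 13.8 CPM in TG 1, 2 and 3. Only TG 1 fell within the NTG range. The log2 fold change was 0.18 (SE 0.13, 95% interval −0.12 to 0.49, edgeR's adjusted p = 0.471), and it was 0.11 without NTG 1. Relative to the cardiomyocyte markers it turned to −0.31, with overlapping groups.

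**Figure D2:**
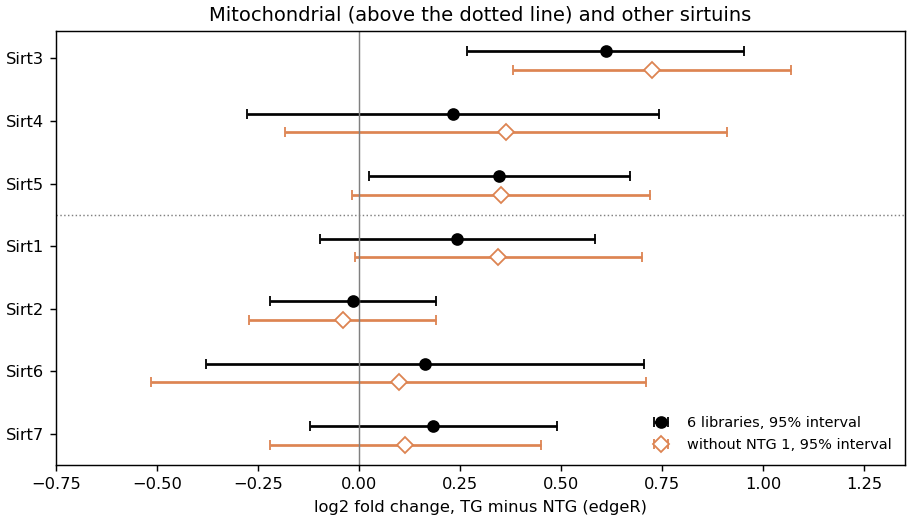
Points are fitted log2 fold changes (TG minus NTG, edgeR) of the 7 sirtuins with 95% intervals, in black over 6 libraries and in open diamonds without the library labelled NTG 1. The intervals of Sirt3 lie right of 0 in both fits, that of Sirt5 only with all 6 libraries (from 0.02), and those of the other members span 0.

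By class, all 3 mitochondrial members were fitted higher in TG, with a median log2 fold change of 0.35. The nuclear and cytosolic class had 3 members fitted higher and 1 lower, with a median of 0.17, and the median over all genes tested was −0.01. Without NTG 1 the medians were 0.36 and 0.11, and without TG 3 they were 0.39 and 0.07. The 8 ventricular cardiomyocyte markers had a median of 0.40 in the same hearts, and relative to them Sirt3 was at 0.15, Sirt4 at −0.19 and Sirt5 at −0.12, so that the median of the mitochondrial class turned below 0. The nuclear and cytosolic members were lower still on this scale, Sirt1 at −0.24, Sirt2 at −0.50, Sirt6 at −0.30 and Sirt7 at −0.31. These are descriptions of 3 and 4 genes measured in the same libraries, and the difference between the classes was not tested.

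Library by library, Sirt3, Sirt4 and Sirt5 together made up 29.3, 23.1 and 27.3% of the length-scaled sirtuin signal (summed FPKM, the CPM per kilobase of exons) in NTG 1, 2 and 3 and 32.4, 31.2 and 31.2% in TG 1, 2 and 3. All TG libraries exceeded all NTG libraries, and NTG 2 had the lowest share. Their summed level was 10.9, 7.87 and 10.6 FPKM in NTG and 13.4, 11.9 and 13.2 FPKM in TG, whereas the other 4 members summed to 26.2 to 28.2 FPKM in NTG and 26.2 to 29.2 FPKM in TG. The mean log2 CPM of the mitochondrial class, set against its mean over the 6 libraries, was −0.49 in NTG 2, −0.08 in NTG 3 and −0.03 in NTG 1, and 0.10 to 0.25 in TG. NTG 2, the lowest library, also had the lowest sum of cardiomyocyte markers (17010 CPM) and the highest of fibroblast markers (6775 CPM), and their part in its low values was not tested.

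**Figure D3:**
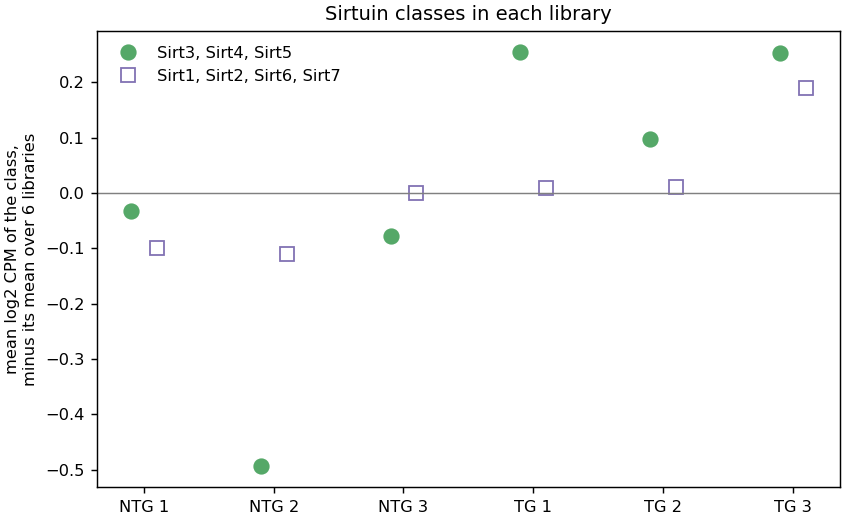
For each library on the horizontal axis, the vertical axis gives the mean log2 CPM of a sirtuin class minus that class's mean over 6 libraries (filled circles for Sirt3, Sirt4 and Sirt5, open squares for Sirt1, Sirt2, Sirt6 and Sirt7). The circles lie below 0 in the NTG and above 0 in the TG libraries, with NTG 2 lowest at −0.49, while the squares stay between −0.11 and 0.19.

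By FPKM, Sirt2 was the most abundant member in each of the 6 libraries. It stood at 19.9 ± 1.04 FPKM in NTG and 19.6 ± 1.0 in TG (SD, n = 3 each). That was 4.01 to 7.58 times the level of Sirt3. The length behind FPKM is the union of exons over all annotated transcripts, such as 5148 bases from 11 transcripts for Sirt7 and 2398 from 6 for Sirt4. An expressed transcript can be shorter, so the order between genes and the class shares above depend in part on the annotation. Sirt1, Sirt3, Sirt4 and Sirt5 formed a middle group whose mean levels ran from 2.96 (Sirt3) to 3.42 FPKM (Sirt5) in NTG and from 3.65 (Sirt1) to 4.51 FPKM (Sirt3) in TG. Within it the order changed from library to library, so neighbours there did not differ beyond their spread. Sirt7 came sixth in all libraries (2.20 ± 0.19 and 2.50 ± 0.19 FPKM) and Sirt6 last (1.76 ± 0.33 and 1.97 ± 0.42 FPKM). Sirt3 was the lowest of the middle group in NTG 1, the highest in TG 1 and TG 3, and between these, at the same rank, in NTG 2, NTG 3 and TG 2. Sirt2 took 51.6 to 56.8% of the summed sirtuin FPKM in NTG and 48.1 to 48.7% in TG.

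**Figure D4:**
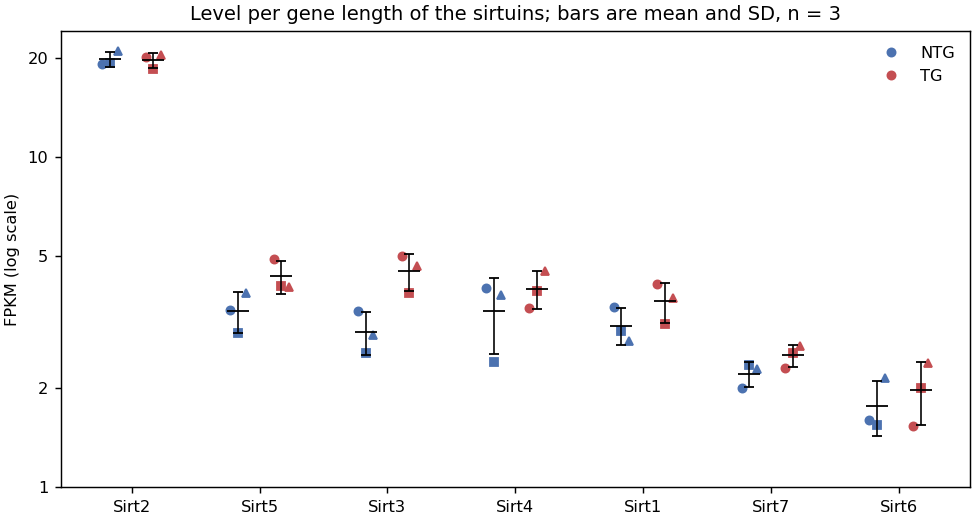
FPKM of each sirtuin on a log axis, in order of mean level, with NTG libraries in blue, TG libraries in red and bars for mean and SD (n = 3 each). Sirt2 lies near 20 FPKM, Sirt1, Sirt3, Sirt4 and Sirt5 share a range between 2.39 and 4.999 FPKM, and Sirt7 and Sirt6 come last.

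Across the 6 libraries, the genes whose log2 CPM ran most closely with Sirt3 were Ndufv3, a subunit of respiratory complex I (Pearson r = 0.999), and Mrps14, a protein of the mitochondrial ribosome (r = 0.998). Ndufv3 stood at 112.7 ± 18.8 CPM in NTG and 179.4 ± 22.4 CPM in TG, with groups that did not overlap (log2 fold change 0.67, edgeR's adjusted p = 0.196). Sirt3 had 517 genes with r over 0.95, more than any other member, while Sirt5 had 111, Sirt1 74, Sirt4 55, Sirt2 11, Sirt7 10 and Sirt6 7. The genes most like Sirt5 were Shank3 (r = 0.999) and Caskin2 (r = 0.995), both encoding scaffold proteins. For the others they were Il4 and Ppdpf (Sirt1), Gm10767 and Pih1d1 (Sirt2), Aptx and Ccdc3 (Sirt4), Letm2 and Camsap1 (Sirt6), and Smg1 and Acin1 (Sirt7), with r between 0.974 and 0.997. Between members, r was 0.863 for Sirt3 with Sirt1 and 0.849 for Sirt3 with Sirt5. With 6 libraries in 2 groups, any gene that differs between the groups correlates with any other, and these values are a description only.

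Of the 4 tested genes that overlap or adjoin the other sirtuins in the GENCODE annotation, 2 had all TG libraries above all NTG libraries (11.2% of all genes tested did), and both lie on the opposite strand. Dnajc12, whose start is 739 bases from the outer end of the Sirt1 gene in GENCODE, stood at 5.32 ± 0.72 CPM in NTG and 7.99 ± 0.24 CPM in TG (log2 fold change 0.59, edgeR's adjusted p = 0.196). Ankrd24, 743 bases from Sirt6, stood at 3.99 ± 0.33 and 5.59 ± 0.42 CPM (log2 fold change 0.49, edgeR's adjusted p = 0.229). Neither shares exonic bases with the sirtuin beside it, and the RefSeq start used for the Sirt1 promoter window lies inside the GENCODE gene, much further from Dnajc12. Nfkbib at Sirt2 (42 shared bases, log2 fold change 0.18) and Mafg at Sirt7 (124 shared bases, 0.03) had overlapping groups, and Gm16145 at Sirt1 and Mir6936 at Sirt7 had 0 counts. Sirt4 and Sirt5 share no exonic base with another gene.

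Of 12 tested genes of NAD synthesis and transport, 9 were fitted higher and 3 lower in TG (median log2 fold change 0.21, against −0.01 over all genes), with 1 in each direction at an unadjusted p under 0.05, a count near the 18.6% of all genes. The gene furthest apart was Nmrk2, the muscle nicotinamide riboside kinase, at 31.5, 298 and 162 CPM in NTG 1, 2 and 3 and 13.2, 18.2 and 9.07 CPM in TG 1, 2 and 3. All TG libraries were lower, and NTG 1 lay far below the other NTG libraries. Its log2 fold change was −3.60 (SE 0.79, edgeR's adjusted p = 0.196), and −4.09 without NTG 1 (edgeR's adjusted p = 0.0210). Nadk2, the mitochondrial NAD kinase, was fitted higher (0.54, edgeR's adjusted p = 0.226), as was Nampt, the rate-limiting enzyme of the salvage pathway (0.35, edgeR's adjusted p = 0.298), both with overlapping groups. Without NTG 1 they were at 0.73 and 0.52 (edgeR's adjusted p = 0.0552 and 0.0740).

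Other enzymes that consume NAD were fitted lower in 7 of 9 tested genes (median −0.11), with 2 lower and 1 higher at an unadjusted p under 0.05 (18.6% of all genes in either direction). Cd38, the main NAD glycohydrolase, was at 45.7, 60.0 and 50.4 CPM in NTG 1, 2 and 3 and at 37.9, 35.6 and 36.1 CPM in TG 1, 2 and 3. No TG library reached the lowest NTG library (log2 fold change −0.51, SE 0.11, edgeR's adjusted p = 0.196), and without NTG 1 the value was −0.60 (edgeR's adjusted p = 0.0294). Its relative Bst1 was fitted at −1.57 (edgeR's adjusted p = 0.229) and Parp14, an ADP-ribosyltransferase, at 0.76 (edgeR's adjusted p = 0.247), each with overlapping groups. Both Cd38 and Bst1 are expressed in immune cells, and the macrophage and neutrophil markers were fitted lower in the same TG hearts. The 3 neutrophil markers summed to 8.94, 220.1 and 34.1 CPM in NTG 1, 2 and 3 and to 8.30 to 15.6 CPM in TG, so that the groups overlapped and NTG 2 stood highest. Their part in these values was not tested. The 2 proteins that bind SIRT1, Ccar2 (−0.06, an inhibitor) and Rps19bp1 (0.09, an activator), were close to 0.

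Of 14 tested genes for substrates of the mitochondrial sirtuins, 13 were fitted higher in TG and 1 lower, with a median log2 fold change of 0.39, and 5 were higher at an unadjusted p under 0.05, against 8.83% of all genes in that direction. Idh2, the mitochondrial isocitrate dehydrogenase that SIRT3 deacetylates, was at 1261, 638 and 917 CPM in NTG 1, 2 and 3 and at 1712, 1385 and 1539 CPM in TG 1, 2 and 3. It was the 1 gene of the list whose groups did not overlap, a smaller share than the 11.2% of all genes (log2 fold change 0.72, SE 0.24, edgeR's adjusted p = 0.213, and 0.99 with adjusted p = 0.0348 without NTG 1). The other 4 were Mlycd, the malonyl-CoA decarboxylase (0.61), Acss1, the mitochondrial acetyl-CoA synthetase (0.53), Sdha of complex II (0.49) and Ndufa9 of complex I (0.38), with edgeR's adjusted p between 0.226 and 0.254. Without NTG 1, Mlycd was also called, at 0.88 (edgeR's adjusted p = 0.0340), and the median of the list was 0.55. In Mlycd, Acss1, Sdha and Ndufa9, NTG 1 lay above the lowest TG library. The 8 cardiomyocyte markers, fitted higher in the same hearts, had a median of 0.40 (log2). Their part in the list's values was not tested.

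Of 11 tested genes for substrates of the nuclear and cytosolic sirtuins, 6 were fitted higher and 5 lower (median 0.01), with 1, Hif1a, past an unadjusted p of 0.05, a smaller share than the 18.6% of all genes. Hif1a, the oxygen-sensitive transcription factor, was at 130, 212 and 132 CPM in NTG 1, 2 and 3 and at 86.0, 98.8 and 80.1 CPM in TG 1, 2 and 3. All TG libraries were lower (log2 fold change −0.84, SE 0.20, edgeR's adjusted p = 0.196, and −0.96 with adjusted p = 0.0451 without NTG 1). Ppargc1a, the coactivator of mitochondrial biogenesis that SIRT1 deacetylates, was at 94.4, 26.8 and 29.5 CPM in NTG 1, 2 and 3 and at 150, 95.1 and 93.2 CPM in TG 1, 2 and 3. NTG 1 lay with TG 2 and TG 3 rather than with its own group, and the log2 fold change was 1.17 with it (edgeR's adjusted p = 0.282) and 2.002 without it (edgeR's adjusted p = 0.0205). Stk11, the kinase LKB1, was fitted at 0.18 (edgeR's adjusted p = 0.304) with groups that did not overlap. In this list of 11, 2 genes had all TG libraries higher (Stk11 and Acss2) and 1 lower (Hif1a). Of all genes tested, 23.5% did not overlap in either direction.

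The other deacetylases and the acetyltransferases served as the nearest enzyme classes. Of 11 zinc-dependent deacetylases, 7 were fitted higher and 4 lower (median 0.04), and Hdac5 and Hdac10 were higher at an unadjusted p under 0.05, against 8.83% of all genes in that direction and 18.6% in either. Hdac5, a class IIa member, was at 74.5, 61.5 and 70.8 CPM in NTG 1, 2 and 3 and at 92.1, 82.9 and 88.6 CPM in TG 1, 2 and 3, with no overlap (log2 fold change 0.35, SE 0.10, edgeR's adjusted p = 0.196). Hdac10 had a like value of 0.36 (SE 0.14, edgeR's adjusted p = 0.231) at 7.91 to 9.42 CPM in NTG and 10.4 to 11.3 CPM in TG, while Hdac11 was at 0.56 with overlapping groups (edgeR's adjusted p = 0.276). Of 9 tested lysine acetyltransferases, 4 were fitted higher and 5 lower (median −0.01), with none at an unadjusted p under 0.05. The smallest p among them belonged to Kat8 (0.33, edgeR's adjusted p = 0.285), Kat7 (−0.16, 0.333) and Kat2a (0.15, 0.469).

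**Figure D5:**
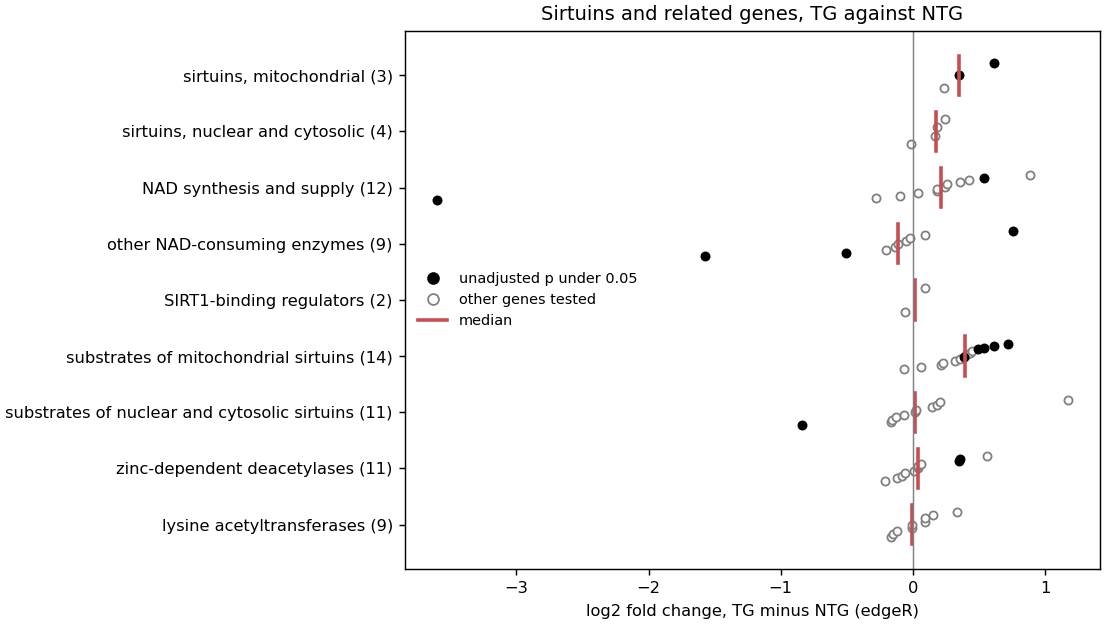
Each point is the fitted log2 fold change (TG minus NTG, edgeR) of 1 gene in the 2 sirtuin classes and 7 related lists, filled where the unadjusted p was under 0.05, and red bars are list medians. The medians of the mitochondrial sirtuins (0.35) and of their substrates (0.39) lie furthest right, and Nmrk2 (−3.60) lies furthest left.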

How the data were processed

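RNA was poly-A selected from left ventricles, sequenced on a NovaSeq and counted per gene by the authors. The deposited values are raw counts, with no columns left unmatched. The submitters' processing notes name HISAT2, DESeq2 and GRCh38, but 98.3% of the gene coordinates found in the mouse annotation GENCODE M21 (GRCm38) were identical to it. Here, counts were filtered with filterByExpr, TMM-normalized and tested between TG and NTG with edgeR 4.0.16 (robust quasi-likelihood, R 4.3.3) and Benjamini-Hochberg adjustment over all genes tested. CPM are TMM-scaled, log2 CPM used a prior count of 2, and FPKM are CPM per kilobase of deposited gene length. DESeq2 1.42.0, limma 3.58.1 (voom), other scalings and filters, a replicate block and leave-outs were alternatives. The fit was tested on simulated data. Each library is taken as 1 mouse; the study's methods give 3 hearts per group. Named genes are the sirtuins, Hint2, list genes with an unadjusted p under 0.05 or among the 3 smallest, the 2 best correlated genes per sirtuin, and genes overlapping or starting within 1 kb. Members and lists were chosen with earlier results of these data known. Counting error and mouse-to-mouse spread both limit precision at 3 libraries per group.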

Additional observations from a re-analysis of the deposited data

How the results depend on the processing

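Over 17 alternatives, Sirt1 and Sirt3 to Sirt7 were fitted higher in TG throughout, Sirt1 at 0.15 to 0.35, Sirt3 at 0.51 to 0.72, Sirt4 at 0.03 to 0.36, Sirt5 at 0.24 to 0.45, Sirt6 at 0.01 to 0.33 and Sirt7 at 0.10 to 0.24 (log2). Sirt4 was lowest without NTG 2 and Sirt6 without TG 3. The count of sirtuins called, 0 with all libraries in edgeR's quasi-likelihood test, was 1 (Sirt3) with no low-count filter (0.60, adjusted p = 0.0345), in edgeR's likelihood-ratio test (0.61, adjusted p = 0.0352) and in DESeq2, and 0 to 1 over leave-outs, with 1 only without NTG 1. All genes called numbered 232, 545, 583 and 836 there, against 0. Added after the values were seen, DESeq2 with each library left out called 0 to 1 sirtuins (Sirt3 at 0.52 to 0.73), with 0 without NTG 2, NTG 3, TG 1 or TG 3. Where it called 0 sirtuins it called 96 to 179 of all genes. It called 778 of 15062 without TG 2 and 1773 of 15136 without NTG 1. Sirt2 lay between −0.0436 and 0.0273 over leave-outs and at −0.10 when scaled by library size alone. It turned above 0 without NTG 3 or TG 2. The median of the nuclear and cytosolic members lay between 0.0695 and 0.193 over leave-outs, lowest without TG 3. Relative to the summed cardiomyocyte markers, also added, Sirt1 (−0.24), Sirt4 (−0.19), Sirt5 (−0.12), Sirt6 (−0.30) and Sirt7 (−0.31) turned lower in TG. The cause of these changes was not tested. Same-numbered libraries did not deviate together (r = 0.08, 0.17 and −0.25). With 3 libraries per group, these correlations cannot exclude that the numbers pair the mice. With a replicate block, edgeR called 231 genes and 0 sirtuins, with Sirt3 at 0.61 (adjusted p = 0.0512).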
